A study of Caenorhabditis elegans with 6 samples.

Results

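The genes described here carry the response of Caenorhabditis elegans to low oxygen and to hydrogen sulfide. The 8 genes of interest were hif-1, egl-9, vhl-1, rhy-1, cysl-1, cysl-2, sqrd-1 and ethe-1, and their members on the array were the probe sets that the platform annotation ties to a single gene with one of these symbols. This gave 7 probe sets for 6 genes, out of 20766 such probe sets and 17118 genes on the array. The genes were vhl-1, rhy-1, cysl-1 with 2 probe sets, cysl-2, sqrd-1 and ethe-1. The probe sets of hif-1 and egl-9 did not meet the rule, because the annotation lists each symbol under 2 gene numbers. Of each pair of numbers 1 was found in the RefSeq gene table, so the values of these 2 probe sets are given beside the members and are kept out of their counts and medians. A further probe set, shared by rhy-1 and its neighbour oac-54, is also given separately.

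Transcript levels were measured on 6 Affymetrix arrays, each hybridised with labelled RNA from whole adult worms. In the albendazole group (ABZ, n = 3) worms were exposed for 4 h to 300 µg/ml of albendazole, a benzimidazole drug that binds tubulin, in 1.5% DMSO by volume. In the DMSO group (n = 3) worms were exposed for 4 h to 1.5% DMSO alone. All worms of both groups were of strain CB3474, carried the allele ben-1(e1880)III and were 70 h past the first larval stage, from shaken liquid culture at 20 °C; ben-1 encodes the β-tubulin through which the worm is sensitive to benzimidazoles. No group lacked the mutation or the solvent, so neither could be compared. The labels give no oxygen or sulfide level for the cultures.

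In animals with enough oxygen the prolyl hydroxylase EGL-9 modifies the transcription factor HIF-1, and the von Hippel-Lindau protein VHL-1 then directs HIF-1 to degradation, so the pathway is known to act mostly on protein stability and less on hif-1 transcript. When hydrogen sulfide is high, CYSL-1 binds EGL-9 and frees HIF-1, and the membrane protein RHY-1 holds CYSL-1 back. HIF-1 raises transcription of rhy-1 and egl-9, which closes a feedback loop, and of enzymes that handle sulfide and cyanide, among them cysl-2 and sqrd-1. The arrays measure transcript only, and in whole worms fewer cells of a type and less RNA per cell cannot be told apart.

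Values are log2 signal, on which a step of 1 is a 2-fold difference, and a log2 fold change is the albendazole mean minus the DMSO mean, with its standard error (SE) from limma. The medians of the arrays lay between 7.59 and 7.66. DMSO replicate 1 stood apart, with a correlation across probe sets of 0.934 to 0.943 with the other arrays and a compressed scale (SD 1.73, against 1.98 to 2.02 on the others), and log2 fold changes below are given with and without it. All 30 marker genes fixed for the tissues of an adult hermaphrodite were measured. Summed per tissue, the markers of muscle, epidermis, germline and oocytes, sperm and embryos overlapped between the groups, as did those of intestine and yolk. The summed signal of the 3 sperm markers was between 9.98 and 11.79 in albendazole worms and between 9.82 and 11.2 in DMSO worms. That of the 4 neuron markers was between 12.34 and 12.52 in albendazole worms and between 11.9 and 12.36 in DMSO worms. The summed signal of the 3 markers of a male or larval state did not overlap, at 11.45 to 11.46 in albendazole worms and 10.91 to 11.4 in DMSO worms. The brightest of these, lin-28, read 11.00 to 11.07 in albendazole worms and 10.06 to 10.95 in DMSO worms. The other markers of this kind, her-1 and mlt-10, each overlapped between the groups, with log2 fold changes of -0.20 and -0.05. DMSO replicate 1 held the lowest DMSO sum of every kind but sperm, where it held the highest. Their part in the results below was not tested. The probe set of ben-1 read 8.67 to 8.99 in albendazole worms and 7.95 to 8.65 in DMSO worms, with the lowest value again on DMSO replicate 1.

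None of the hypoxia and sulfide genes passed the test after 4 h of albendazole. Of the 6 member genes 0 were called at an adjusted p under 0.05, and across the array limma called 0% of 22548 probe sets, with 0 members and 1.86% of all probe sets at an unadjusted p under 0.05. Without DMSO replicate 1 again 0 members and 0% of probe sets were called, with 0 members and 5.74% of probe sets at an unadjusted p under 0.05. Their log2 fold changes lay between -0.10 and 0.40 with a median of 0.23, beside a median of 0.02 over all 17118 genes, and 5 of the 6 (83.3%) were positive, against 52.2% of all genes. Without DMSO replicate 1 the members lay between -0.34 and 0.16 with a median of 0.02, beside -0.02 over all genes, and 4 of the 6 (66.7%) were positive, against 41.4%. With hif-1 and egl-9 counted in, the median of 8 genes was 0.21, and 0.02 without DMSO replicate 1. With 3 arrays against 3 an exact permutation test of a single gene cannot go below p = 0.1, two-sided.

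**Figure D1:**
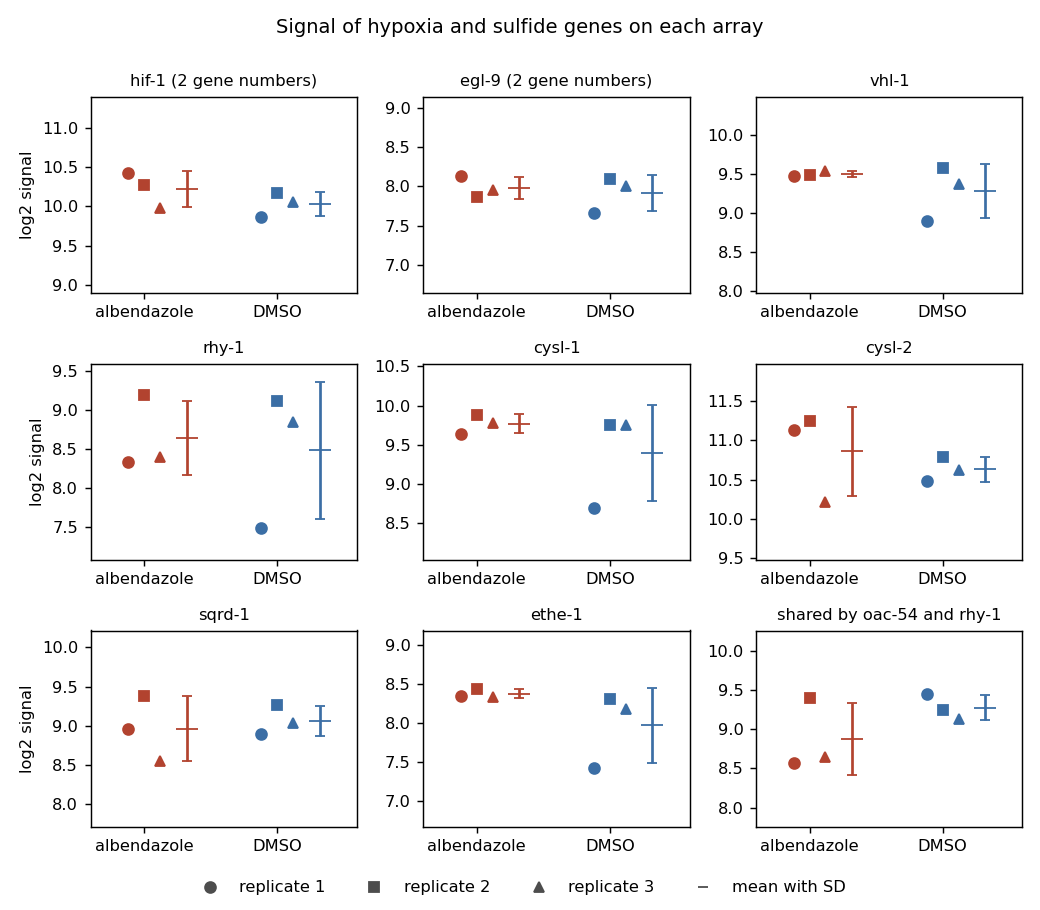
Log2 signal (vertical axis, each panel spanning the same number of log2 units) of each probe set on the 3 albendazole arrays (left, red) and the 3 DMSO arrays (right, blue), with markers for the replicate number and the group mean with its SD. The groups overlap in every panel but that of ethe-1, DMSO replicate 1 is the lowest DMSO value in every panel but the one shared by oac-54 and rhy-1, and rhy-1, cysl-2 and sqrd-1 spread widely among the albendazole arrays.

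The core genes of oxygen sensing did not pass. The hif-1 probe set (annotated to 2 gene numbers) read 10.43, 10.27 and 9.98 in albendazole worms, against 9.87, 10.17 and 10.05 in DMSO worms. The groups overlapped, with the highest value in an albendazole sample and the lowest in DMSO replicate 1. For hif-1 the log2 fold change was 0.20 (SE 0.15, limma adjusted p = 0.651), and its 95% confidence interval reached from -0.18 to 0.57. Without DMSO replicate 1 it was 0.12. That direction did not hold under every scaling: it was -0.04 after quantile and -0.05 after cyclic loess normalization.

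The egl-9 probe set, also under 2 gene numbers, read 8.13, 7.86 and 7.95 in albendazole worms, against 7.66, 8.09 and 8.01 in DMSO worms. All but albendazole replicate 1 lay inside the range of the DMSO samples. Its log2 fold change was 0.06 (SE 0.15, limma adjusted p = 0.832), and -0.07 without DMSO replicate 1. The 95% confidence interval reached from -0.31 to 0.43.

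The vhl-1 gene (NCBI gene 181321), which encodes the substrate-binding part of the ubiquitin ligase, read 9.47, 9.48 and 9.54 in albendazole worms, against 8.90, 9.57 and 9.37 in DMSO worms. The albendazole samples were nearly level, at 9.50 ± 0.04 against 9.28 ± 0.35 with DMSO (SD, n = 3 each), and lay within the range of the DMSO samples. Its log2 fold change was 0.21 (SE 0.18, limma adjusted p = 0.651), and -0.01 after cyclic loess normalization. Without DMSO replicate 1 the difference was 0.02, with a 95% confidence interval of -0.17 to 0.22.

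The genes of RHY-1 and CYSL-1, which act on HIF-1 through EGL-9, did not pass either. The rhy-1 gene (gene 174455), whose product restrains CYSL-1, read 8.33, 9.19 and 8.40 in albendazole worms, against 7.49, 9.11 and 8.85 in DMSO worms. In each group the second replicate was the highest, and DMSO replicate 1 was far below the other arrays. This gave rhy-1 a log2 fold change of 0.15 (SE 0.47, limma adjusted p = 0.861). Without DMSO replicate 1 it was -0.34, with a 95% confidence interval of -1.01 to 0.33.

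The probe set shared by oac-54 and rhy-1 tracked the rhy-1 probe set on 5 arrays and departed from it on DMSO replicate 1. It read 8.57, 9.40 and 8.65 in albendazole worms, against 9.45, 9.25 and 9.13 in DMSO worms. Here DMSO replicate 1 held the highest value of the 6 arrays, while the rhy-1 probe set had its lowest value there. Its log2 fold change was -0.40 (SE 0.24, limma adjusted p = 0.651), and -0.32 without DMSO replicate 1, so both probe sets gave a negative value once that array was left out. Whether its signal comes from oac-54 or rhy-1 was not tested.

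The sulfide sensor gene cysl-1 (gene 181209), a relative of cysteine synthases, read 9.64, 9.88 and 9.78 in albendazole worms, against 8.69, 9.75 and 9.75 in DMSO worms. All arrays but DMSO replicate 1 lay close together. Its log2 fold change was 0.37 (SE 0.30, limma adjusted p = 0.651), and without DMSO replicate 1 it was 0.01, with a 95% confidence interval of -0.20 to 0.22. Its dimmer probe set read 8.93, 8.94 and 9.03 in albendazole worms and 7.95, 8.85 and 8.97 in DMSO worms, with a log2 fold change of 0.38 and of 0.06 without DMSO replicate 1.

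Among the enzymes, cysl-2 (gene 175107) encodes a cyanoalanine synthase that detoxifies cyanide and is used as a reporter of HIF-1 activity. It read 11.13, 11.25 and 10.21 in albendazole worms, against 10.48, 10.79 and 10.62 in DMSO worms. Albendazole replicates 1 and 2 lay above all DMSO samples and replicate 3 below all of them. For cysl-2 this gave a log2 fold change of 0.24 (SE 0.29, limma adjusted p = 0.682, 1.18-fold), with a 95% confidence interval of -0.47 to 0.94. It became 0.16 without DMSO replicate 1, 0.57 without albendazole replicate 3, 0.10 without albendazole replicate 1 and 0.04 without albendazole replicate 2, and it was 0.03 after quantile and 0.01 after cyclic loess normalization.

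The sqrd-1 gene (gene 178374) encodes the mitochondrial sulfide:quinone oxidoreductase, which takes the first step of sulfide oxidation. It read 8.96, 9.38 and 8.55 in albendazole worms, against 8.89, 9.27 and 9.03 in DMSO worms. The albendazole samples spanned the DMSO samples at both ends. For sqrd-1 the log2 fold change was -0.10 (SE 0.23, limma adjusted p = 0.82), and -0.18 without DMSO replicate 1. Without albendazole replicate 3 it was 0.11, without albendazole replicate 2 it was -0.31, and after quantile and cyclic loess normalization it was -0.29 and -0.30.

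The ethe-1 gene (gene 177783) encodes the persulfide dioxygenase that acts downstream of SQRD-1 in mitochondria. It read 8.35, 8.44 and 8.33 in albendazole worms, against 7.42, 8.31 and 8.18 in DMSO worms. Every albendazole sample read higher than every DMSO sample, by a narrow margin over DMSO replicate 2, and ethe-1 was the only member gene whose groups did not overlap. Across the array 7.81% of probe sets were separated in this direction. The gene had a log2 fold change of 0.40 (SE 0.24, limma adjusted p = 0.651, 1.32-fold). Without DMSO replicate 1 it was 0.13, with a 95% confidence interval of -0.05 to 0.31.

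**Figure D2:**
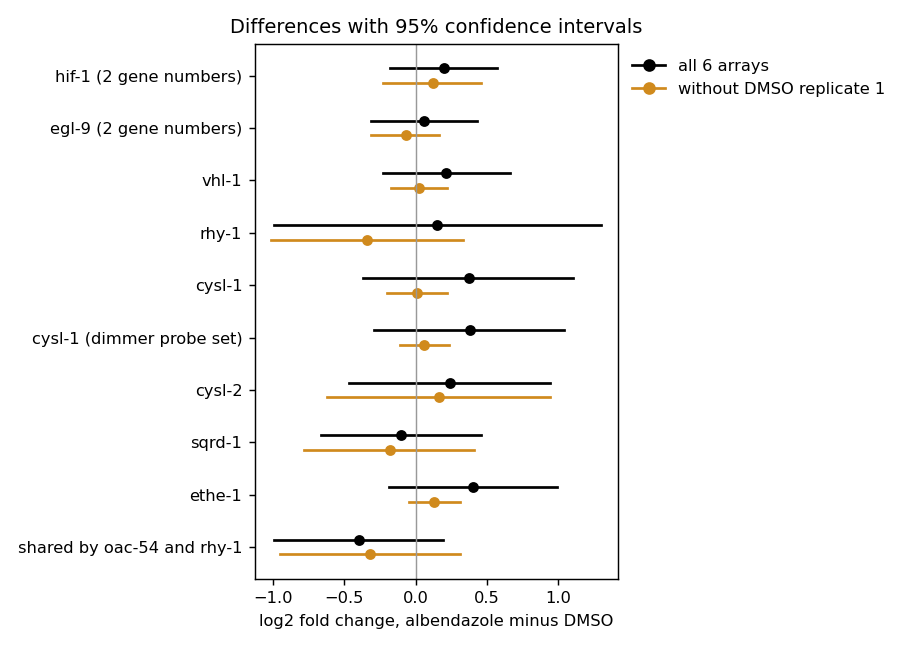
Log2 fold change of each probe set (horizontal axis, albendazole minus DMSO) with its 95% confidence interval from limma, with all 6 arrays (black) and without DMSO replicate 1 (orange). All intervals include 0. Without DMSO replicate 1 those of rhy-1, vhl-1, cysl-1, ethe-1 and egl-9 narrow, and that of hif-1 changes little. Those of cysl-2, sqrd-1 and the probe set shared by oac-54 and rhy-1 do not narrow.

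Leaving out DMSO replicate 1 brought vhl-1, cysl-1 and ethe-1 nearer to 0 and turned the sign of rhy-1, while 4 of the 6 member genes stayed positive. Set against the mean of DMSO replicates 2 and 3, that array departed by -1.49 for rhy-1, by -1.06 and -0.95 for the probe sets of cysl-1, by -0.82 for ethe-1, by -0.58 for vhl-1 and by -0.26 for sqrd-1. All of these lie in the fourth of 5 equal bins of probe sets by brightness, where the array's median departure was -0.58 and the quartiles were -0.96 and -0.16. Those of sqrd-1, vhl-1, ethe-1 and the dimmer probe set of cysl-1 lay between these quartiles, while rhy-1 and the brighter probe set of cysl-1 lay below the lower one. The departures of cysl-2 and hif-1 were smaller, at -0.23 and -0.24, in the brightest bin with a median of -0.60. That of egl-9 was -0.40, in the middle bin, where the median was 0.03 and the lower quartile -0.38.

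**Figure D3:**
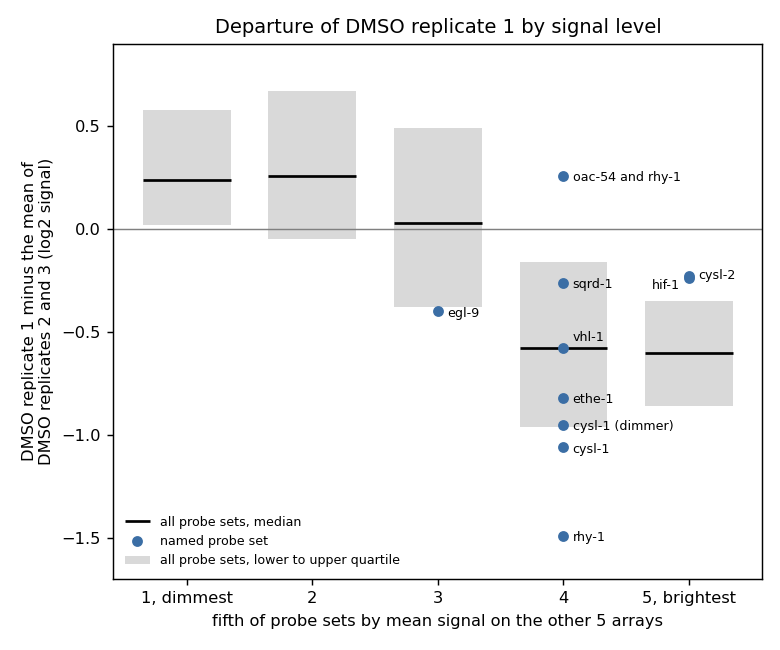
Log2 signal on DMSO replicate 1 minus the mean of DMSO replicates 2 and 3 (vertical axis) in 5 equal bins of probe sets by mean signal on the other 5 arrays (horizontal axis). Grey boxes reach from the lower to the upper quartile of all probe sets, black lines are medians and blue points are the named probe sets; rhy-1 lies lowest at -1.49, and the probe set shared by oac-54 and rhy-1 highest at 0.26.

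The members differed in how far samples of the same treatment lay apart. Among the 3 albendazole arrays the values of cysl-2 ranged over 1.04 log2 units (2.06-fold), those of rhy-1 over 0.86 and those of sqrd-1 over 0.83. Only 1.29%, 2.04% and 2.18% of all genes had a wider range on these arrays than cysl-2, rhy-1 and sqrd-1, and the median gene ranged over 0.17. The values of vhl-1, ethe-1 and cysl-1 ranged over 0.07, 0.11 and 0.24, those of the hif-1 probe set over 0.45 and those of the egl-9 probe set over 0.27. Over the 5 arrays other than DMSO replicate 1 the ranges of cysl-2, rhy-1 and sqrd-1 were the same, and 1.98%, 3.15% and 3.38% of all genes ranged more widely. For these 3 genes the SD of the albendazole samples, 0.57 for cysl-2, 0.48 for rhy-1 and 0.42 for sqrd-1, was larger than the difference between the treatments. As background, HIF-1 is known to raise all 3. Of other genes so described, cysl-3 ranged over 0.57 on the albendazole arrays, cdo-1 over 0.55, fmo-2 over 0.51 and nhr-57 over 0.50. The range was 0.37 for efk-1, 0.26 for phy-2, 0.24 for F22B5.4 and 0.13 for smf-3, with egl-9 as above. A part of HIF-1 in these ranges was not tested. The grouping of cysl-2, rhy-1 and sqrd-1 was made after the values had been seen.

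Replicate 2 held the highest value of both groups at once for rhy-1, cysl-2, sqrd-1 and ethe-1. This was 4 of 6 member genes (66.7%), and 12.7% of all genes had the same pattern. In the list of other genes described as HIF-1 targets it held for 4 of 8, the sulfur enzyme gene cdo-1 (cysteine dioxygenase), cysl-3, the nuclear receptor gene nhr-57 and fmo-2, which encodes a flavin monooxygenase. It also held for 7 of 17 genes of cysteine and sulfur metabolism (41.2%) and 1 of 2 ferritin genes, and for 0 of 5 partners of HIF-1 and VHL-1. These counts describe 6 arrays and were made after the values had been seen. The member genes all lie in the fourth and brightest bins, where DMSO replicate 1 read low, with median departures of -0.58 and -0.60. Shares among genes of like brightness were not computed. For nhr-57 the values were 8.17, 8.67 and 8.24 in albendazole worms, against 8.33, 8.54 and 8.42 in DMSO worms, with a log2 fold change of -0.07 (limma adjusted p = 0.818), -0.12 without DMSO replicate 1 and 0.03 without albendazole replicate 1.

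**Figure D4:**
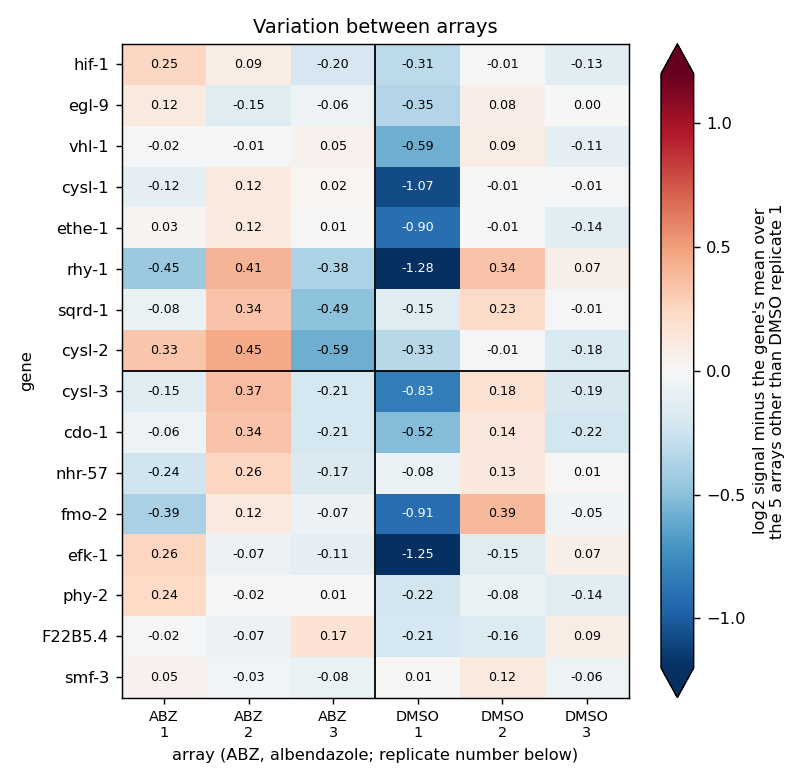
Deviation of each gene's log2 signal from its own mean over the 5 arrays other than DMSO replicate 1 (colour and number), for hif-1, egl-9 and the member genes (above the line) and other genes described as HIF-1 targets (below it), on the albendazole arrays (left) and the DMSO arrays (right). Replicate 2 reads positive in both groups for rhy-1, sqrd-1, cysl-3, cdo-1, nhr-57 and fmo-2, and DMSO replicate 1 reads lowest for rhy-1 (-1.28), efk-1 (-1.25) and cysl-1 (-1.07), followed by fmo-2, ethe-1 and cysl-3.

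The other genes of the pathway, taken from lists drawn up by name, had 0 calls in either direction. Of 5 measured partners of HIF-1 and of the VHL-1 ligase, 4 had a positive log2 fold change, and the median was 0.22 (0.06 without DMSO replicate 1). The gene of the dimerisation partner of HIF-1, aha-1, read 9.47, 9.19 and 9.25 in albendazole worms, against 8.87, 9.08 and 9.10 in DMSO worms. Its groups did not overlap, with a log2 fold change of 0.29 (SE 0.13, limma adjusted p = 0.651, unadjusted p = 0.062). The groups did not overlap for 2 of the 5 partners, aha-1 and swan-1, and for 2980 of all 17118 genes, in either direction. For aha-1 the log2 fold change was 0.21 without DMSO replicate 1, 0.09 after quantile and 0.07 after cyclic loess normalization. The swan-1 gene, for a WD-repeat protein that binds EGL-9, had 0.76, and 0.17 without DMSO replicate 1, which read 8.08 while the other arrays read between 9.82 and 10.10. Among the ligase subunit genes, rbx-1 had 0.22, against 0.06 without DMSO replicate 1 and 0.05 after quantile normalization. The cullin gene cul-2 had -0.24, against -0.11 without DMSO replicate 1 and -0.47 after quantile normalization. The elongin B gene elb-1 had 0.06, against -0.15 without DMSO replicate 1 and -0.13 after quantile and cyclic loess normalization.

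Of 8 measured genes described as HIF-1 targets 6 had a positive value, with a median of 0.17 (0.04 without DMSO replicate 1). The prolyl 4-hydroxylase gene phy-2 read 8.44, 8.18 and 8.22 in albendazole worms, against 7.99, 8.12 and 8.06 in DMSO worms. Its groups did not overlap, which held for 1 of the 8 genes and, in either direction, for 2980 of all 17118 genes. For phy-2 the log2 fold change was 0.22 (SE 0.11, limma adjusted p = 0.651) and 0.19 without DMSO replicate 1. The log2 fold changes were 0.47 for efk-1, which encodes elongation factor 2 kinase, 0.28 for cysl-3 and 0.23 for cdo-1, and without DMSO replicate 1 these were 0.06, 0.01 and 0.07. After quantile normalization they were 0.43, 0.05 and 0.03.

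Among 17 measured genes of cysteine and sulfur metabolism 12 had a positive value, with a median of 0.11 (-0.03 without DMSO replicate 1, with 7 positive). The cystathionine β-synthase gene cbs-1 read 9.11, 8.04 and 8.64 in albendazole worms, against 8.46, 7.92 and 7.99 in DMSO worms. The groups overlapped, with a log2 fold change of 0.47 (SE 0.30, limma adjusted p = 0.651). It was 0.64 without DMSO replicate 1, 0.22 without albendazole replicate 1 and 0.75 without albendazole replicate 2. The glutathione synthetase gene gss-1 had 0.36 (0.08 without DMSO replicate 1). The S-adenosylmethionine synthetase gene sams-1 had 0.25, against 0.37 without DMSO replicate 1 and 0.05 without albendazole replicate 1. A relative of cbs-1, cbs-2, had -0.50, set by a value of 8.13 on DMSO replicate 1 where the other arrays read 6.66 to 6.76, and -0.04 without that array. The ferritin genes, which HIF-1 is known to lower, had log2 fold changes of -0.02 for ftn-1 and 0.09 for ftn-2, and of -0.01 and 0.04 without DMSO replicate 1. After cyclic loess normalization they were -0.25 for ftn-1 and -0.01 for ftn-2.

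**Figure D5:**
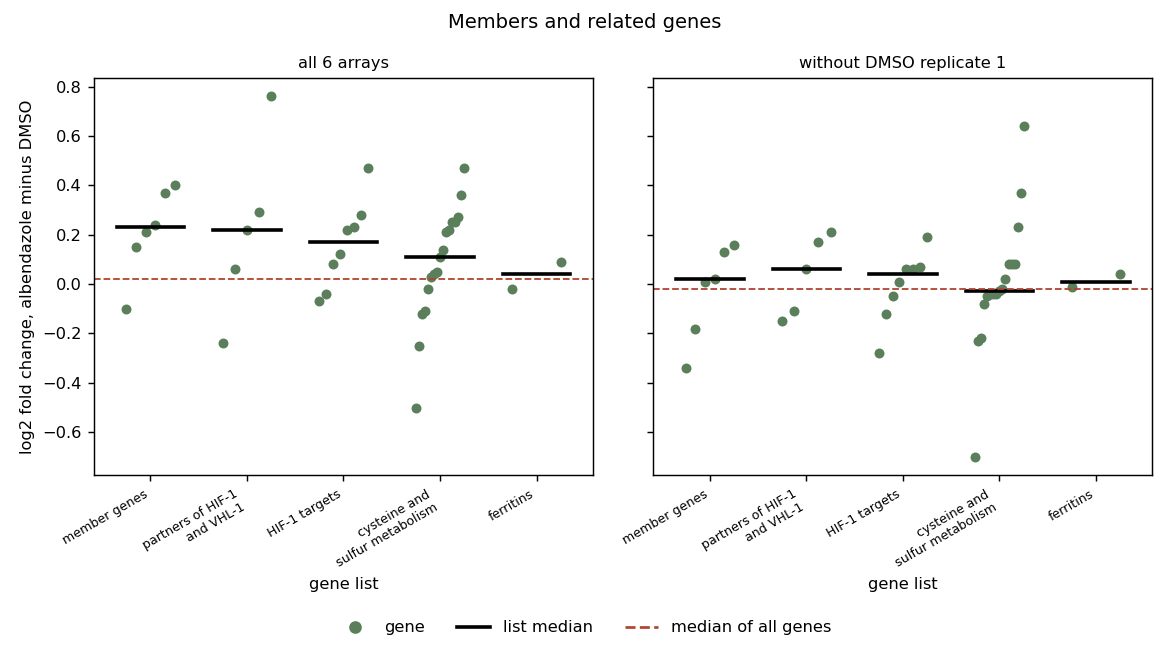
Log2 fold change (vertical axis, albendazole minus DMSO) of each gene in the member group and in the related lists, with all 6 arrays (left) and without DMSO replicate 1 (right); black bars are list medians and the dashed red line is the median of all genes. Without that array the list medians lie between -0.03 and 0.06.

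The genes most like a variable member were sought by Pearson's r of log2 values over the 6 arrays, among 17117 other genes, as a description in which all genes share the same arrays and the departure of DMSO replicate 1. The closest to cysl-2 were dpf-2 (r = 0.992) and F59F5.4 (r = 0.976), whose own values lay close together, between 6.69 and 7.03 for dpf-2. The closest to sqrd-1 were rips-1 (r = 0.98) and R04A9.3 (r = 0.968). The values of R04A9.3 lay close together, between 7.72 and 7.93. The values of rips-1 were 10.09, 11.29 and 9.51 in albendazole worms, against 9.98, 11.01 and 10.50 in DMSO worms, a wider swing than that of sqrd-1 with the 6 arrays in the same order. The closest to rhy-1 were C35B1.4 and slc-36.5 (r = 0.997 each). The values of C35B1.4 lay between 11.36 and 11.74, a narrower swing than that of rhy-1. For slc-36.5 they were 8.15, 8.80 and 8.22 in albendazole worms, against 7.56, 8.69 and 8.46 in DMSO worms.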

How the data were processed

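RNA of 6 whole-worm samples was hybridised to Affymetrix arrays, 1 array each. The deposited values were made by the authors with RMA, and limma is also named, per the submitters' processing notes; versions, settings and the genome build are not given in the sources used here. They were taken as log2 signal, a scale inferred from the deposited range of 4.887 to 14.89. No detection calls or raw scans were used, and the number of arrays limits precision. The 77 control probe sets were left out, and 22548 were tested with limma 3.58.1 in R 4.3.3 (group as the only term, eBayes, two-sided, Benjamini-Hochberg over all of them, called at 0.05). A gene is represented by its brightest single-gene probe set. Gene names come from the platform annotation; sequences and coordinates were not used here. The members, lists and alternatives were chosen with earlier results of these data known. The rule for named genes takes all members, every gene of lists of up to 6, the 4 smallest p values of longer lists and the 2 genes most like cysl-2, sqrd-1 and rhy-1. Outside this rule, nhr-57, fmo-2, F22B5.4, smf-3, cth-1, cth-2 and semo-1 were added after their values were seen. The limma step alone was tested on simulated data with independent noise, which held no outlying array like DMSO replicate 1 and no effect shared by replicates. The labels state no pairing, so the replicate numbers were not taken as pairs in the main fit. Deviations from the group mean of samples with the same number correlated at 0.125, 0.264 and 0.066 across probe sets. Those of samples with different numbers correlated lower, at -0.165 to 0.062, so a shared effect of the number is not excluded. A fit with the replicate number as a block is given below. The labels call the samples biological replicates, which is what the p-values' spread rests on.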

Additional observations from a re-analysis of the deposited data

How the results depend on the processing

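Of 356 alternative values for 25 single genes, 331 kept their direction and 0 passed the threshold (lowest adjusted p 0.436). Called probe sets stayed at 0, leave-one-out fits included, except for 5 with gene-by-gene array weights, among them no named gene. The members' median was 0.02 to 0.41 with single arrays left out (0.02 without DMSO replicate 1), 0.09 after quantile, 0.00 after cyclic loess normalization and 0.23 with the replicate number as a block; the block changed no call. The sign turned in these fits, where the cause was not tested. With cyclic loess normalization vhl-1 had -0.01, hif-1 -0.05, elb-1 -0.13 and ftn-2 -0.01; with quantile normalization hif-1 had -0.04 and elb-1 -0.13. With array weights vhl-1 had -0.02, rhy-1 -0.24, egl-9 -0.13 and elb-1 -0.13. With replicate 1 of both groups left out rhy-1 had -0.19, egl-9 -0.15, elb-1 -0.09 and efk-1 -0.05. With single arrays left out the log2 fold changes ranged from -0.34 to 0.47 for rhy-1, from -0.31 to 0.11 for sqrd-1, from -0.07 to 0.15 for egl-9, from -0.15 to 0.17 for elb-1, from -0.14 to 0.10 for ftn-1 and from -0.23 to 0.03 for nhr-57. Signal over background could not be read from the table.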

Other observations

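The gene cth-1, which encodes a cystathionine γ-lyase that makes cysteine and can release hydrogen sulfide, read 11.16, 11.60 and 10.91 in albendazole worms, against 10.58, 11.96 and 11.89 in DMSO worms. Its log2 fold change was -0.25 with all arrays and -0.70 without DMSO replicate 1 (unadjusted p = 0.0133, limma adjusted p = 0.775), when all albendazole values lay below the remaining DMSO values. Without DMSO replicate 1, 5.74% of all probe sets had an unadjusted p under 0.05. The share of probe sets separated on these 5 arrays was not computed. Without DMSO replicate 2 the log2 fold change of cth-1 was -0.01. The gene was chosen after its values were seen and did not pass. The cbs-1 gene, which acts before it in the same route, had positive values in both fits. The methanethiol oxidase gene semo-1 read 9.47, 10.32 and 9.22 in albendazole worms, against 8.56, 9.92 and 9.88 in DMSO worms, again with replicate 2 highest in both groups.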
